A study of Homo sapiens with 3 samples.

Results

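The transcripts described here are those of 9 regulators of the amino acid and unfolded protein stress response: ATF3, ATF4, ATF5, DDIT3, CEBPB, CEBPG, TRIB3, NUPR1 and JDP2. They were taken by gene symbol from the platform annotation, which gave 14 probes for them among 47231 probes on the array, and 9 of the 20039 genes with a named probe. Total RNA came from MDA-MB-231 cells, an established human breast carcinoma line derived from a pleural effusion and named as deficient in the arginine synthesis enzyme ASS1 by the series title. The cells grew in medium with fetal serum. One sample received ADI-PEG20, a pegylated arginine deiminase that breaks down extracellular arginine, at 0.3 µg/ml for 48 h. Another received ADI-PEG20 for 24 h, with a labelled dose of 0.3 whose unit is cut short, and then L-arginine at 420 µg/ml for 24 h. The last was left untreated for 48 h. Each condition had 1 array, so no difference could be set against a spread between cultures, and every comparison is one between these arrays.

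ATF4 is a leucine zipper transcription factor at the centre of the amino acid response. When an amino acid is scarce, the kinase GCN2 phosphorylates eIF2 alpha, general translation slows and ATF4 mRNA is translated more. ATF4 then binds composite elements as a dimer with members of the C/EBP family and induces enzymes, transporters and further regulators. Among those regulators are factors that extend the response and others that restrain it.

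The core of such a composite element was searched in RefSeq promoter windows of build GRCh38.p14, each running from 250 bases before a transcription start to 50 bases after it. Windows were present for 8 of the 9 genes, 19 windows in all, and none was held for NUPR1. The letters searched were TGATGNAA on either strand. They occurred in 3 of the 19 windows, belonging to ATF3, JDP2 and CEBPG, against 3.62% of 35116 windows of all genes. The 30 bases around each match are shown because these genes are among those that stood 2-fold or more above the untreated array under ADI-PEG20, with the matched letters in capitals. They lie at chr1:212565202-212565231 for ATF3, chr14:75427992-75428021 for JDP2 and chr19:33374057-33374086 for CEBPG, all on the plus strand.
ATF3: tgaaaaggtcaggaTGATGGAAggctgtca
JDP2: tatatagccggggcTGATGCAAcccgtccc
CEBPG: cgccgcgcggcgtcTGATGCAAcctgccgg
The matches began 191 bases before a start of ATF3, 16 before a start of JDP2 and 42 before a start of CEBPG. JDP2 and CEBPG shared all 8 letters. These genes have more than 1 listed start, and which start served these cells was not measured.

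Other motifs were searched in the same windows on both strands. The shared core TGACG, which is also part of the full cyclic AMP response element TGACGTCA, lay in 5 member windows, of ATF4, ATF5, CEBPB and JDP2, and in 24.6% of all windows. The AP-1 site TGANTCA lay in 3 member windows, of ATF5 and DDIT3, and in 7.71% of all windows. The 2 windows of ATF4 overlap and hold the same matches, as do the 2 of DDIT3, so windows with a match are not separate sites. The full element, the C/EBP site TTGCGNAA and the endoplasmic reticulum stress element ERSE had no match in the member windows. These elements occurred in 1.85%, 0.891% and 0.0769% of all windows. A match is a string of letters and not a measured binding site, and TRIB3, with 3 windows, matched no motif.

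Under ADI-PEG20, 6 of the 9 regulators were 2-fold or more above the untreated array and none was 2-fold or more below it. After background correction the highest was NUPR1, followed by TRIB3, ATF3, CEBPG, JDP2 and ATF4, while CEBPB differed less, DDIT3 little, and ATF5 was lower. This order depended on the correction. Without it TRIB3 was the highest, at 1.55 on the log2 scale, ahead of NUPR1 at 1.46. ATF4 at 1.01 then stood above CEBPG at 0.98, and JDP2 at 0.58 stood below CEBPB at 0.60. Of the 10960 genes above background on either array, the share at 2-fold or more was 1.75% upward and 2.14% downward. The median difference of the regulators was 1.11 on the log2 scale, against -0.0034 over all these genes. The regulators were proposed with earlier results of these arrays known, so this count describes them and does not test them. Differences are given as log2 of background-corrected intensity. A probe counted as above background where its intensity passed 165, which is 3 background SDs above the most common intensity. The brightest probe of each gene passed this limit on all 3 arrays. Where a gene had 2 probes above background, as 2517 genes did, their differences under ADI-PEG20 scattered with an SD of 0.22 per probe. This error covers the probes and leaves out the cultures. The deposited values share 1 distribution on every array, so cells with more or less total RNA would look the same. In bulk RNA, fewer cells with a transcript and less of it per cell cannot be told apart.

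**Figure D1:**
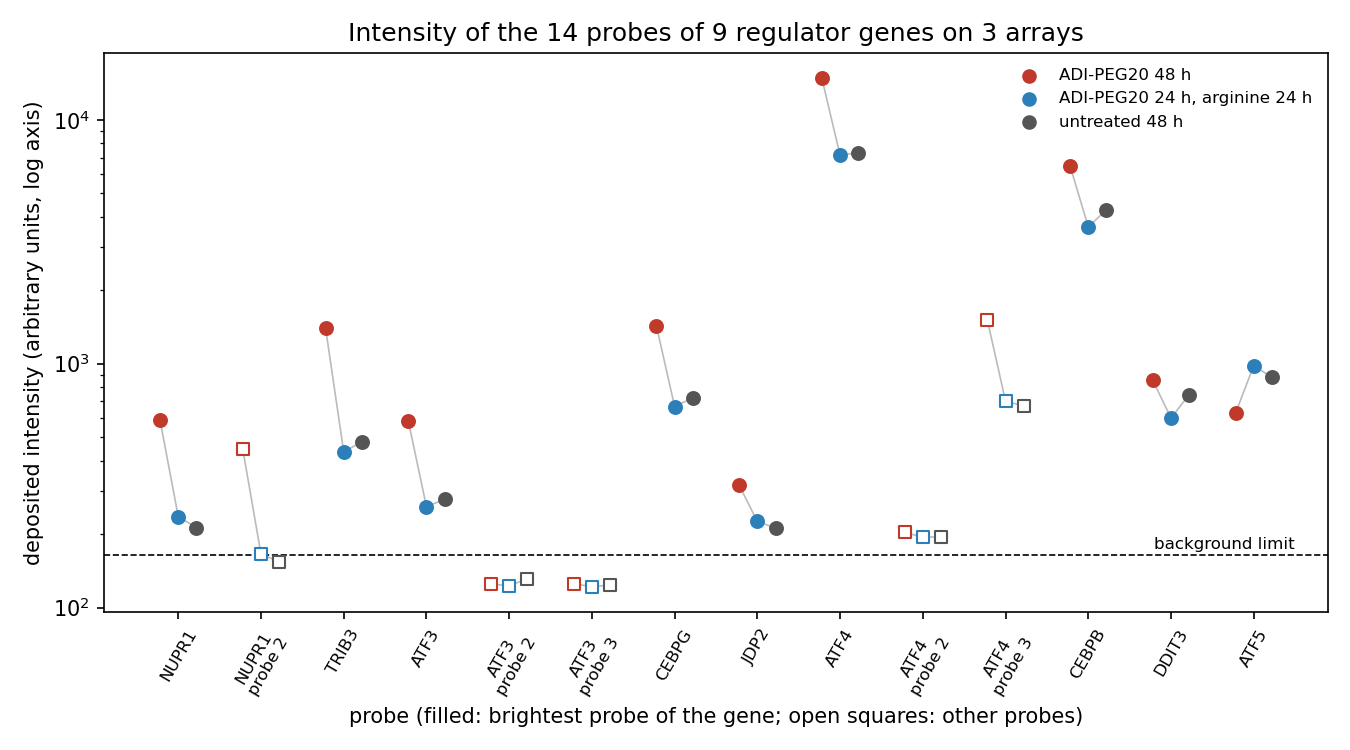
Deposited intensity on a log axis for the 14 probes of the 9 regulators, with 1 point per array for ADI-PEG20, ADI-PEG20 then arginine, and untreated cells. The ADI-PEG20 point is the highest of the 3 for every brightest probe except that of ATF5, and levels of different probes are not comparable with each other.

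ATF4, the central activator, was read by 3 probes. On its brightest probe the intensity was 14772 under ADI-PEG20, 7147 after arginine and 7338 in untreated cells. The ADI-PEG20 array stood apart, and the arginine array was at 0.974 of the untreated one. The difference from untreated cells was 1.02 under ADI-PEG20 and -0.04 after arginine. A second ATF4 probe, annotated to another transcript, read 1510 under ADI-PEG20, 703 after arginine and 670 in untreated cells, a difference of 1.34 under ADI-PEG20. A dim ATF4 probe read 203, 194 and 195 in the same order. That dim probe differed by 0.16 under ADI-PEG20, so the mean over the 3 probes was 0.84 and missed the 2-fold line.

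ATF5 is the closest relative of ATF4 in this group, is likewise controlled at translation and is linked to stress of mitochondria. Its only probe read 626 under ADI-PEG20, 982 after arginine and 878 in untreated cells. It was the only regulator whose lowest value was on the ADI-PEG20 array. The difference was -0.59 under ADI-PEG20 and 0.18 after arginine, neither of them 2-fold. In the order of differences under ADI-PEG20, ATF5 stood at rank 1012 from the lowest of 10960 genes.

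ATF3 is a leucine zipper factor, induced by many stresses, that represses as a homodimer. Its brightest probe read 584 under ADI-PEG20, 259 after arginine and 278 in untreated cells. The ADI-PEG20 value was 2.10 times the untreated one before background correction, and the difference after it was 1.56. After arginine the difference from untreated cells was -0.19. The other 2 ATF3 probes stayed below background on all 3 arrays, between 122 and 132, and 1 of them is annotated to the same transcript accession as the bright probe. Every statement on ATF3 thus rests on 1 of 3 probes, and the mean over all of them gave 0.50.

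JDP2, the Jun dimerization protein, is a repressor of AP-1 and ATF sites. The intensity was 317 under ADI-PEG20, 226 after arginine and 212 in untreated cells, all of them above the background limit of 165. Its difference under ADI-PEG20 was 1.11. Without correction the difference was 0.58, so the 2-fold call of JDP2 rests on the background correction. With an offset of 50 in place of 16 it was 0.88. After arginine the difference from untreated cells was 0.20, close to the error between probes of 0.19 in that comparison.

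The C/EBP factors are the dimer partners of ATF4. CEBPG, which lacks a classical activation domain and pairs with ATF4, read 1427 under ADI-PEG20, 667 after arginine and 724 in untreated cells. The ADI-PEG20 array was again the only high one. Its difference was 1.12, and 0.98 without background correction, which falls just short of 2-fold. CEBPB, whose single mRNA yields activating and inhibitory proteins, read 6477 under ADI-PEG20, 3638 after arginine and 4275 in untreated cells. That is a difference of 0.61 under ADI-PEG20 and of -0.24 after arginine. CEBPB was bright on all arrays, so background correction moved it little, to 0.60 without it.

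DDIT3 encodes CHOP, a C/EBP-like factor that forms dimers with C/EBP proteins and is known for promoting cell death in prolonged stress. Its probe read 854 under ADI-PEG20, 599 after arginine and 747 in untreated cells. The difference of 0.23 under ADI-PEG20 was about the size of the error between probes. After arginine it stood at -0.39, the lowest of the 9 regulators in that comparison and at rank 703 from the lowest of 10913 genes. DDIT3 thus had its largest distance, -0.62, between the arginine array and the ADI-PEG20 array.

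TRIB3 is a pseudokinase that binds ATF4 and limits its activity. The probe read 1403 under ADI-PEG20, 435 after arginine and 479 in untreated cells. Its difference under ADI-PEG20 was 1.84, at rank 19 from the highest of 10960 genes, and 1.55 without background correction. After arginine it was -0.19.

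NUPR1 encodes a small, disordered nuclear protein induced by stress. The brighter of its probes read 586 under ADI-PEG20, 236 after arginine and 213 in untreated cells, and the other read 446, 166 and 154 in the same order. Both probes were high on the ADI-PEG20 array alone. The brighter probe differed by 2.35, or 5.10-fold, at rank 12 from the highest of 10960 genes. The other probe was below background in untreated cells, and on the background-corrected scale, which sets the size of such a bound, its ADI-PEG20 value was at least 7.54-fold higher. The untreated values lay near the background limit. Before correction the ratio of ADI-PEG20 to untreated intensity was 2.75 for the brighter probe and 2.89 for the other. After arginine NUPR1 differed by 0.33 from untreated cells, the highest of the 9 regulators.

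**Figure D2:**
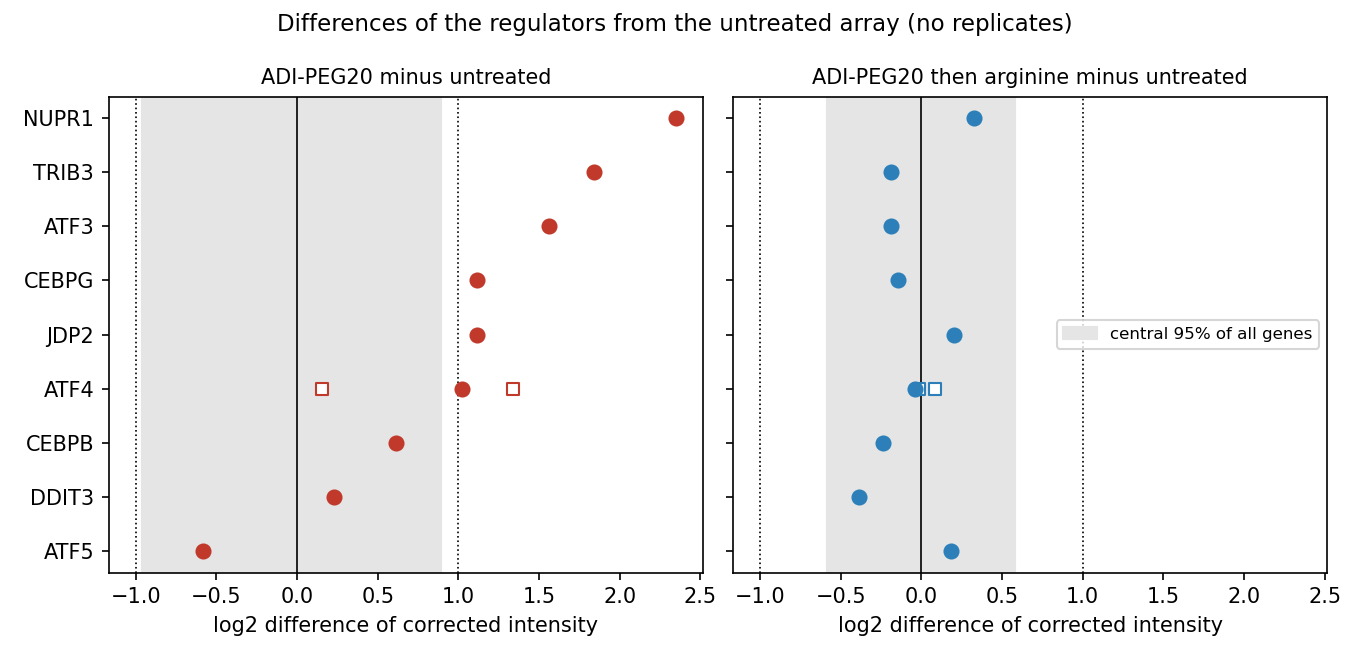
Log2 differences of the 9 regulators from the untreated array under ADI-PEG20 (left) and after ADI-PEG20 then arginine (right). Filled points are the brightest probe, open squares other probes above background on both arrays, the grey band the central 95% of all genes and dotted lines 2-fold. NUPR1, TRIB3, ATF3, CEBPG, JDP2 and ATF4 lie beyond the band on the left, and all 9 lie within it on the right.

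After the return to arginine no regulator differed from untreated cells by 2-fold in either direction. In this comparison of 10913 genes the share at 2-fold or more was 0.33% upward and 0.302% downward, so a count of 0 among 9 genes is near the background. The differences ran from -0.39 for DDIT3 to 0.33 for NUPR1, with 3 above 0 and 6 below. The median was -0.14, against -0.0069 over all genes. The central 95% of all genes ran from -0.59 to 0.58 in this comparison, and all 9 regulators were inside it.

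Set against the ADI-PEG20 array, the arginine array was 2-fold or more lower for 5 of the 9 regulators. These were TRIB3 at -2.03, NUPR1 at -2.02, ATF3 at -1.75, CEBPG at -1.26 and ATF4 at -1.06. The share of all 10952 genes at 2-fold or more was 1.89% downward and 2.1% upward. JDP2 at -0.91, CEBPB at -0.85 and DDIT3 at -0.62 were lower by less. ATF5 was higher, at 0.77. The 3 comparisons share arrays and are not separate evidence.

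How far the differences under ADI-PEG20 rest on the background step and on the choice of probe varied between the regulators. Of 8 alternatives, 4 left every regulator at the same value, since all 9 were above background on all arrays. TRIB3 and NUPR1 were 2-fold or more higher under each of the other 4. NUPR1 ranged most among these 2, from 1.46 without background correction to 2.82 as the mean of its probes. CEBPB, DDIT3 and ATF5 stayed short of 2-fold under the same 4.

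**Figure D3:**
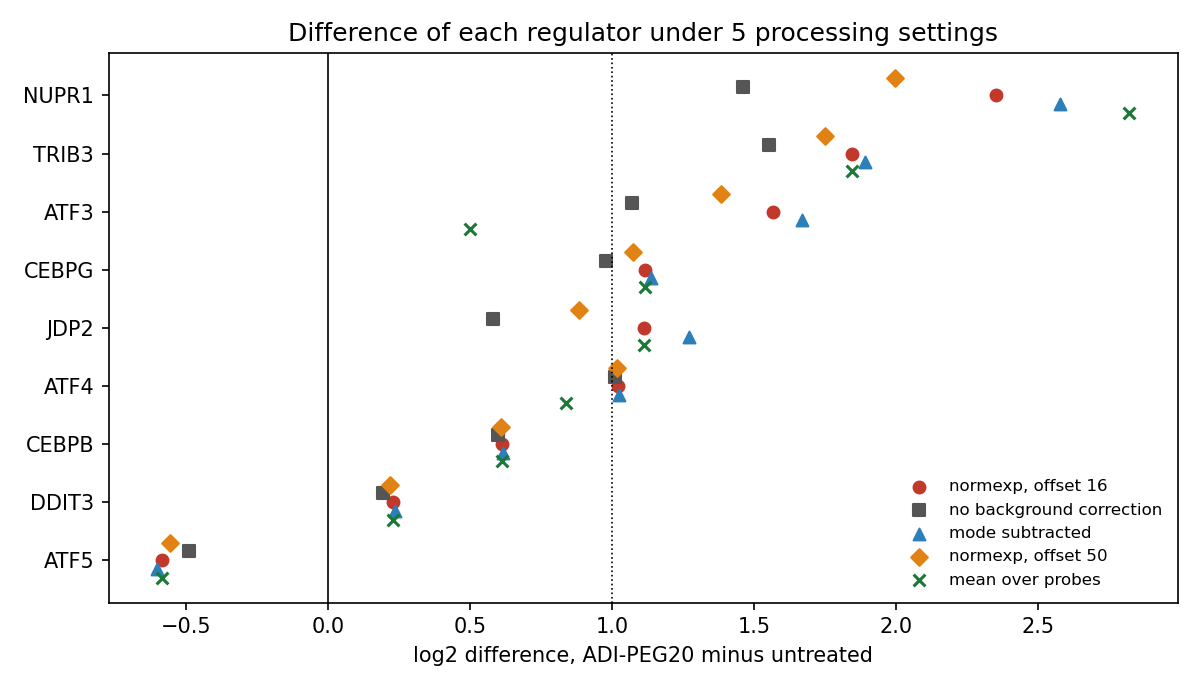
Log2 difference of each regulator, ADI-PEG20 minus untreated, under 5 processing settings, with a dotted line at 2-fold. TRIB3 and NUPR1 stay right of the line under all 5, ATF3 and ATF4 cross it with the mean over probes, CEBPG without background correction and JDP2 without background correction or with an offset of 50.

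Genes that ATF4 is known to induce were listed without the regulators themselves. Of 45 such genes 41 had a named probe, 36 were above background under ADI-PEG20 or in untreated cells, and 23 were 2-fold or more higher under ADI-PEG20, with none 2-fold lower. Their median was 1.26, and 1.08 with 21 genes 2-fold higher once dim values on 1 of the arrays were replaced by their bound. Over all 10960 genes the share at 2-fold or more was 1.75% upward and 2.14% downward, for this list and those that follow. The lists were chosen with earlier results of these arrays known, so such counts describe them and do not test them. ASNS, asparagine synthetase, read 9722 under ADI-PEG20, 665 after arginine and 664 in untreated cells. CTH of cysteine synthesis differed by 3.05 and PSAT1 of serine synthesis by 2.79. After arginine the median of the list was -0.03 over 33 genes.

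The 11 genes associated with CHOP had a median of 0.17, and 2 of them were 2-fold or more higher. CHAC1, which degrades glutathione, read 320 under ADI-PEG20 and was below background in untreated cells. It was at least 4.62-fold higher on the corrected scale, and the ratio before correction was 2.11. SESN2, a sestrin, was likewise dim in untreated cells, with a ratio of 1.48 before correction and a bound of 1.98-fold on the corrected scale, just under 2-fold. PPP1R15A, the stress-induced subunit of the eIF2 alpha phosphatase, differed by 0.74. All 3 are ATF4 targets too and also stand in that list. The other 8 genes lay between -0.44 and 0.32. Mitochondrial stress genes linked to ATF5 had a median of 0.12 over 12 genes, none of them 2-fold in either direction. Among these the chaperone gene HSPA9 was the highest at 0.66 and CLPX of the mitochondrial protease was at 0.45. NRF1 read 178 under ADI-PEG20 and 163 in untreated cells, just above and just below the background limit.

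The other ATF and CREB genes gave no common direction. Of the 14 above background 6 were higher and 8 lower, with a median of -0.13. At 2-fold or more, 1 was higher and 2 were lower. CREBRF, a regulator that binds CREB3 and promotes its turnover, read 777 under ADI-PEG20, 356 after arginine and 416 in untreated cells, a difference of 1.16. CREB3L2 read 894, 1630 and 1686 in the same order, a difference of -1.02. CREB3, a membrane-bound factor, read 222, 203 and 336, and was low on both treated arrays. Before correction the ratio of ADI-PEG20 to untreated intensity was 1.87 for CREBRF, 0.53 for CREB3L2 and 0.66 for CREB3, none of them 2-fold. A list of other genes with C/EBP symbols and of PAR domain and related genes had a median of 0.27 over 5 genes, none 2-fold. In it TEF was at 0.51 and DBP at -0.39. CEBPZ, which stands in the list by its symbol and not as a C/EBP family member, was at 0.29.

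AP-1 and MAF genes encode further dimer partners. The median of 13 such genes was 0.27, and 2, JUNB and MAF, were 2-fold or more higher, or 1 with dim values at their bound. JUNB read 227 under ADI-PEG20, 220 after arginine and 172 in untreated cells, the last near the background limit. Its ratio of ADI-PEG20 to untreated intensity before correction was 1.32, so its 2-fold call rests on the background correction. MAF read 184 under ADI-PEG20, 165 after arginine and 145 in untreated cells, the last below background. FOS was above background in untreated cells alone, at 166.

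**Figure D4:**
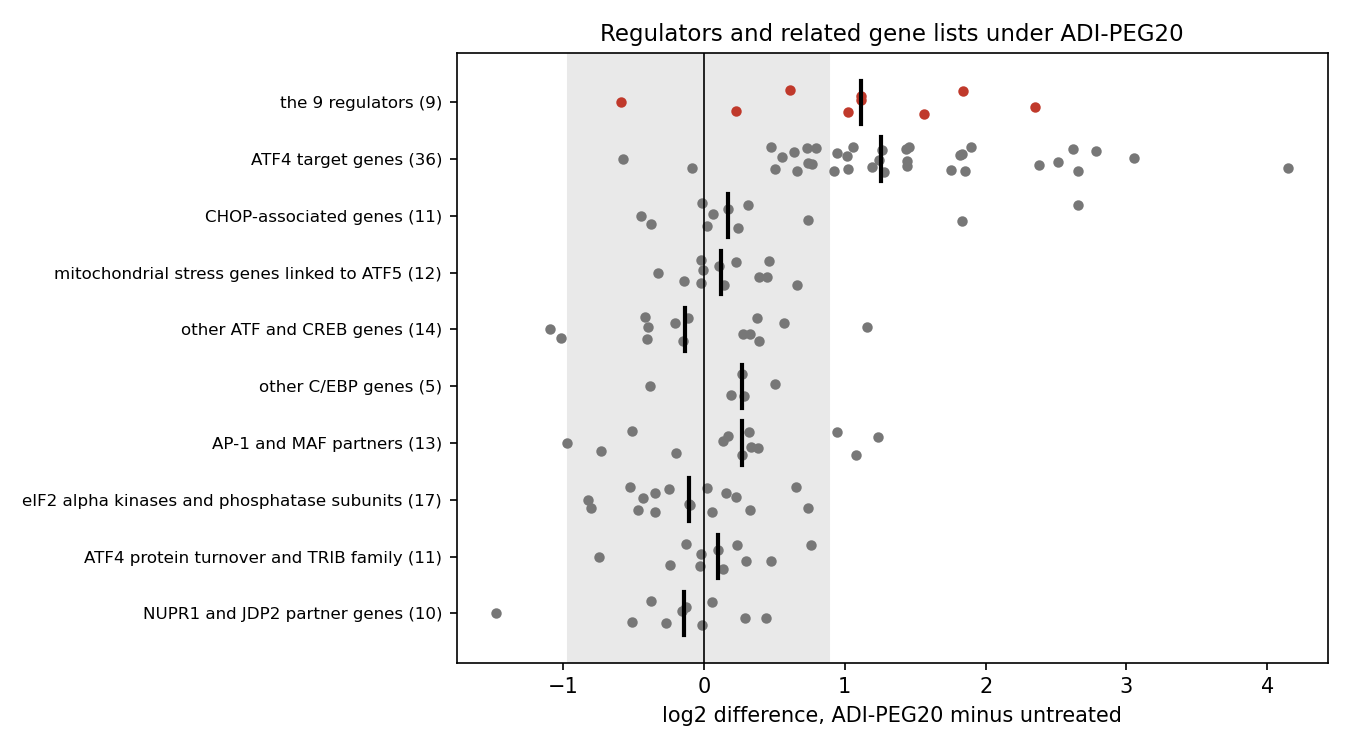
Log2 difference of each gene above background, ADI-PEG20 minus untreated, for the 9 regulators (red) and related gene lists (grey), with the number of genes in brackets, black bars at the medians and a grey band for the central 95% of all genes. The regulators and ATF4 targets have medians of 1.11 and 1.26, and every other list has a median between -0.14 and 0.27.

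Genes with the most similar pattern were found by the distance between the 3 centred log2 values, over 9744 genes above background on all 3 arrays. With 3 arrays such likeness is only a description. Closest to ATF4 were EPAS1, a hypoxia-inducible factor subunit, at a distance of 0.015, RFESD at 0.026 and the chaperone gene HSPA5 at 0.028. Closest to ATF3 were XBP1, a factor of the unfolded protein response, at 0.049, the host gene of small nucleolar RNAs SNHG1 at 0.054 and G0S2 at 0.079. TRIB3 was nearest to the growth factor gene GDF15 at 0.068, then TXNIP at 0.098 and the tubulin gene TUBE1 at 0.17. NUPR1 had no neighbour as close, with BEX2 at 0.21, PHGDH of serine synthesis at 0.22 and VLDLR-AS1 at 0.26.

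The line was checked against its markers. Of 12 mesenchymal markers of these cells 10 were above background on all 3 arrays, among them VIM with 13081 under ADI-PEG20, 16031 after arginine and 15429 in untreated cells. Of the 11 above background under ADI-PEG20 or in untreated cells, 2 were higher under ADI-PEG20 and 9 lower. Their median difference was -0.24, and none was 2-fold in either direction. Of 12 luminal markers 7 were above background on all 3 arrays, while ESR1, PGR, FOXA1 and TFF1 were on none. The intensity of the luminal markers above the modal background summed to 8845 under ADI-PEG20, 5390 after arginine and 5360 in untreated cells. XBP1, which is in that list, read 5330 under ADI-PEG20, 1745 after arginine and 1907 in untreated cells. Most of the higher sum under ADI-PEG20 came from this gene. Of the 8 luminal markers above background under ADI-PEG20 or in untreated cells, 4 were higher under ADI-PEG20 and 4 lower. At 2-fold or more, XBP1 differed by 1.54, CDH1 by 1.03 and SPDEF by -1.01. Before correction the ratio of ADI-PEG20 to untreated intensity was 2.79 for XBP1, 1.53 for CDH1 and 0.76 for SPDEF. The 2-fold calls of CDH1 and SPDEF thus rest on the background correction. The part of these shifts in the values of the regulators was not tested. Among markers of other cell types, 2 of 7 leukocyte genes with a probe, CD68 and CD14, were above background on all arrays, as were 2 of 7 fibroblast genes, LUM and PDGFRB, and none of 6 endothelial genes. The defining markers PTPRC, CD3E, VWF, CDH5, COL1A1 and DCN were not above background on any array.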

How the data were processed

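Biotin-labelled cRNA of 3 samples was measured on Illumina bead arrays of 1 colour, 1 array per condition, per the labels' protocols. The authors deposited linear intensity values for 47231 probes. The submitters' processing notes name GenomeStudio, and the normalization is not given in the sources used here. Minima of 106, maxima of 28717 and medians of 149 were equal on all arrays, as after quantile normalization. A second table, before normalization, has 6 columns of values whose names match no single sample, and was not used. The planned neqc on it was replaced by normexp on the deposited intensity, with the modal intensity of 138 as background mean, a background SD of 9.04, an exponential mean of 424 and an offset of 16.

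Symbols came from the platform annotation, updated through RefSeq gene identifiers for 30074 probes and accessions for 18, while 21 kept the platform symbol. Each gene was read by its brightest probe, and was compared where either array had it above background. A difference was called at 2-fold. No test was possible. For a bound, the dim array's value was raised to the smallest one that passed the background limit there. The number of arrays limits the precision.

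The members, lists and motifs were chosen with earlier results of these data known. Named genes were the 9 regulators, the 3 genes with the largest difference under ADI-PEG20 of each list other than the cell type markers, and the 3 nearest patterns of ATF3, ATF4, TRIB3 and NUPR1. Single cell type markers were named after their values were seen. The steps were tested on simulated data. Python 3.11.15 with numpy 2.4.6, pandas 2.3.3, scipy 1.17.1 and matplotlib 3.10.9 was used.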

Additional observations from a re-analysis of the deposited data

How the results depend on the processing

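Of 8 alternatives, 4 could alter the value of a regulator. Under these 4 no difference past 2-fold changed sign, and 18 of 108 values moved by more than the error between probes. Over the comparisons 7 calls of a regulator at 2-fold were lost and 1 was gained. The 6 regulators 2-fold higher under ADI-PEG20 became 4 without background correction, 5 with an offset of 50 and 4 with averaged probes. Averaging a gene's probes gave a median of 0.84 in place of 1.11 under ADI-PEG20, since dim probes of ATF3 and ATF4 enter the mean. It also left 3 in place of 5 regulators 2-fold lower on the arginine array than on the ADI-PEG20 array. Counts over all genes depended on background correction. Higher and lower genes numbered 192 and 234 under ADI-PEG20, 36 and 33 after arginine against untreated cells, and 230 and 207 after arginine against ADI-PEG20. Without correction they were 52 and 50, 0 and 0, and 48 and 58. With the mode subtracted they were 364 and 414, 134 and 137, and 430 and 404. With an offset of 50 they were 89 and 102, 1 and 1, and 99 and 94. Where both arrays had to be above background they were 112 and 166, 2 and 1, and 150 and 136. With averaged probes the second comparison had 23 and 21, with a limit of 5 background SDs 11 and 9, and at their bounds 2 and 1, beside 127 and 179 in the first comparison. No paired analysis was possible because each condition had 1 array. The planned use of the table before normalization was not run. Signals near the background limit, as for JDP2 and NUPR1, set the precision of their differences.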

Other observations

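Genes of eIF2 alpha phosphorylation gave no common direction. Kinases, phosphatase subunits and exchange factor subunits of eIF2 alpha had a median difference of -0.10 over 17 genes under ADI-PEG20, with 7 higher and 10 lower, and none was 2-fold in either direction. EIF2AK4, which encodes GCN2, the kinase that senses uncharged tRNA, read 266 under ADI-PEG20, 345 after arginine and 373 in untreated cells, a difference of -0.80 under ADI-PEG20. PPP1CC, a catalytic phosphatase subunit, read 4246 under ADI-PEG20, 5545 after arginine and 7433 in untreated cells.

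Genes of ATF4 protein turnover and the other TRIB genes had a median of 0.10 over 11 genes, none of them 2-fold under ADI-PEG20. TRIB1 was at 0.76 and CSNK2A2 at 0.47. EGLN1, an oxygen-dependent prolyl hydroxylase, was at -0.74 under ADI-PEG20 and at 0.52 after arginine. Genes reported as linked to NUPR1 or JDP2, not all of them as binding partners, had a median of -0.14 over 10 genes. Among them the mitotic kinase gene AURKA was at -1.47, HDAC1 at -0.51 and MSL1 at 0.44.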
